A study of Mus musculus with 10 samples.

Results

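The genes described here run cell division and DNA replication, and they were measured in glomerulus-deprived kidney cortex of diabetic and non-diabetic mice. A list of 45 genes was drawn up by symbol, and 43 of them had a row, by Entrez Gene ID, that the probe annotation names, among the 16475 gene rows of the deposited table. Pcna had no row. A row with the Entrez Gene ID of Ccnb1, a B cyclin of mitotic entry, is not listed in the probe annotation and was not analysed here. The 43 genes comprise 21 of the G1/S switch and S phase, 19 of G2 and mitosis, and 3 D cyclins. The db/db group held 5 diabetic BKS mice and the db/m group held 5 nondiabetic littermate controls, all 24 weeks old and untreated. As background, db/db mice carry a leptin receptor mutation on both copies and become obese and diabetic, and db/m mice are carriers without diabetes. Each mouse gave 1 Affymetrix Mouse Genome 430 2.0 array, and all values below are log2 expression levels on which a difference of 1 is a 2-fold difference.

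A cell that divides first copies its DNA and then separates the copies. D and E cyclins with their kinases release E2F transcription factors, which switch on genes for origin licensing, replication forks and nucleotide supply. Later the FoxM1 and B-Myb programmes switch on genes of the spindle, its checkpoint and cytokinesis, and the cyclin B kinase starts mitosis. The adult kidney tubule divides rarely, and its epithelial cells are known to re-enter the cycle after injury. Replication genes are also used in DNA repair and in endoreplication, in which DNA is copied without mitosis.

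The promoters of both sets are shown first, because S phase and mitosis genes are known for different promoter elements. Windows from 250 bases before to 50 bases after the annotated start were taken from RefSeq (GRCm38.p6) for 17 of the 21 S phase genes, 14 of the 19 mitosis genes and 1 of the 3 D cyclins. Those of Ccne2, Mcm4, Gins1, Gins2, Ccna2, Foxm1, Aurkb, Kif20a, Tpx2, Ccnd1 and Ccnd2 were not used here. The E2F letters searched were TTTCCCGC, TTTGGCGC, TTTCGCGC and TTTGCCGC, those of the CHR element, which marks G2 and mitosis promoters, were TTTGAA and TTTAAA, and those of the CCAAT box were CCAAT, all on both strands. E2F letters stood in 7 of 17 S phase windows (41.2%) and 1 of 14 mitosis windows (7.14%), against 2.6% of the 27025 genes with a window. CHR letters stood in 12 of 14 mitosis windows (85.7%) and 5 of 17 S phase windows (29.4%), against 30.6% of all genes. The CCAAT box stood in 12 of 14 mitosis windows (85.7%) and 9 of 17 S phase windows (52.9%), against 41.1% of all genes, and 11 of the 14 mitosis windows held both CHR letters and a CCAAT box, against 13.4% of all genes. A match is a run of letters and not a measured binding site.

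The windows below are those of 3 S phase genes that rose in db/db (Mcm5, Rfc3 and Rrm2) and of 3 mitosis genes high in db/db 1 and 2 (Cdk1, Top2a and Ccnb2), each 5′ to 3′ on its own strand. Capitals mark matches to E2F, CHR or CCAAT letters, and no match of one motif overlapped one of another. Mcm5 held 2 overlapping E2F matches, and also CHR letters and CCAAT boxes. Rfc3 held a pair of E2F matches a few bases apart and a CCAAT box. Rrm2 held CHR letters and a CCAAT box without E2F letters. Cdk1, Top2a and Ccnb2 held CHR letters together with CCAAT boxes, Cdk1 with E2F letters as well. The windows of Rrm1, which rose, and of Bub1, high in db/db 1 and 2, are not shown. Both held CCAAT boxes without E2F or CHR letters.
Mcm5, chr8:75109259-75109558, plus strand: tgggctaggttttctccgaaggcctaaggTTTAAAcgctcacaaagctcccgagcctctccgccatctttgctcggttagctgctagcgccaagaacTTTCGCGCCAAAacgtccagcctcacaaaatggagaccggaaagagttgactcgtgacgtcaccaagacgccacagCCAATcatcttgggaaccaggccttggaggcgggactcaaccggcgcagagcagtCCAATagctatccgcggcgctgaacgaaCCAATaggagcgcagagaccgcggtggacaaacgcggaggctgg
Rfc3, chr5:151651159-151651458, minus strand: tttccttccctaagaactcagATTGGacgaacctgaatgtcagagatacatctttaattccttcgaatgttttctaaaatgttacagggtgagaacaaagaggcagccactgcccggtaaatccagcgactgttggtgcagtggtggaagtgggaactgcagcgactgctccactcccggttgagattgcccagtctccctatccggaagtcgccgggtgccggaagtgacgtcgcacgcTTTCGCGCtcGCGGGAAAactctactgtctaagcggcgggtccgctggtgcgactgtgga
Rrm2, chr12:24708004-24708303, plus strand: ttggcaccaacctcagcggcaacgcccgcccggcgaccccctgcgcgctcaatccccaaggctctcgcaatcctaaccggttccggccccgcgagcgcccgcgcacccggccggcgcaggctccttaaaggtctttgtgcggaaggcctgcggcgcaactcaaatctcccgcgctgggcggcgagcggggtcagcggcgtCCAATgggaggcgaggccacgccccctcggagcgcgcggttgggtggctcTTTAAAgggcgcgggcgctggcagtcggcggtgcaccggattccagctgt
Cdk1, chr10:69352863-69353162, minus strand: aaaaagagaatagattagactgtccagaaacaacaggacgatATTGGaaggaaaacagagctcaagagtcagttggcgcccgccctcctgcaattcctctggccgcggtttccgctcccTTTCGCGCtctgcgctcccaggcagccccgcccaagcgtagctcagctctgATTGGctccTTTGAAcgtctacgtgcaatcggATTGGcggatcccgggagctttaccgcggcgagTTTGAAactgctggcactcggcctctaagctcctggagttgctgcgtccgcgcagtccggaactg
Top2a, chr11:99024140-99024439, minus strand: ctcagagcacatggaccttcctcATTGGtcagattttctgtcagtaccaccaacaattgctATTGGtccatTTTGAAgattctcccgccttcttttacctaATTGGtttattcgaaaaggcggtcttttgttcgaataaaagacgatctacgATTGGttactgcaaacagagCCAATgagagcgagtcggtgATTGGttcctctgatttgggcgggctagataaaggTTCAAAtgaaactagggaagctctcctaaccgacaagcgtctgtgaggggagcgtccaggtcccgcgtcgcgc
Ccnb2, chr9:70421505-70421804, minus strand: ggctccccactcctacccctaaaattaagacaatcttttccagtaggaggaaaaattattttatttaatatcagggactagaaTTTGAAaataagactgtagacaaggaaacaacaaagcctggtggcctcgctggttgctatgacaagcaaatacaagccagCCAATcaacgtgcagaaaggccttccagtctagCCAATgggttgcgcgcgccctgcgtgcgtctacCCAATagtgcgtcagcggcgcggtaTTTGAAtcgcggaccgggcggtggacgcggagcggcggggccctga

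The array medians ran from 8.46 to 8.66. The array of db/db 1 stood apart. Across genes it reached a Pearson r of only 0.938 to 0.962 with any other mouse, and the lowest r among the remaining 9 was 0.9848. Results are therefore given with all 10 arrays and without db/db 1. They are also given without db/db 1 and 2, a split chosen with earlier results of these data known. Db/db 2 did not stand apart in its correlations (highest r 0.9918). Markers of the proximal tubule, such as the phosphate transporter gene Slc34a1, were bright. The mean over 8 markers was 12.69 in db/db 1, 13.12 to 13.18 in db/db 2 to 5 and 13.02 to 13.22 in db/m. In db/db 1 7 of the 8 were below all db/m mice, against 49.4% of all genes. Of 5 podocyte markers 3 rose (Wt1, Synpo and Ptpro), against 2.96% of all genes, although glomeruli had been removed.

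In db/db cortex a group of the listed replication genes rose, while none of the 19 listed mitosis genes passed the test. Of 53 further mitosis genes, described below, 3 rose. Of the 21 S phase genes 6 rose and 0 fell by limma, and of the 19 mitosis genes 0 rose and 0 fell, with 10 of the 19 at an unadjusted p under 0.05, against 21.5% of all genes. Of all 16475 genes 2.96% rose and 3.54% fell (488 and 584 genes, or 363 and 751 with each array centred on its median). The S phase genes had a median change of 0.51 and the mitosis genes one of 0.80, against -0.03 over all genes. The change was above 0 in 20 of 21 S phase genes and in 19 of 19 mitosis genes, against 43.1% of all genes. RNA from bulk cortex cannot tell more cells that express a gene from more RNA per cell.

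**Figure D1:**
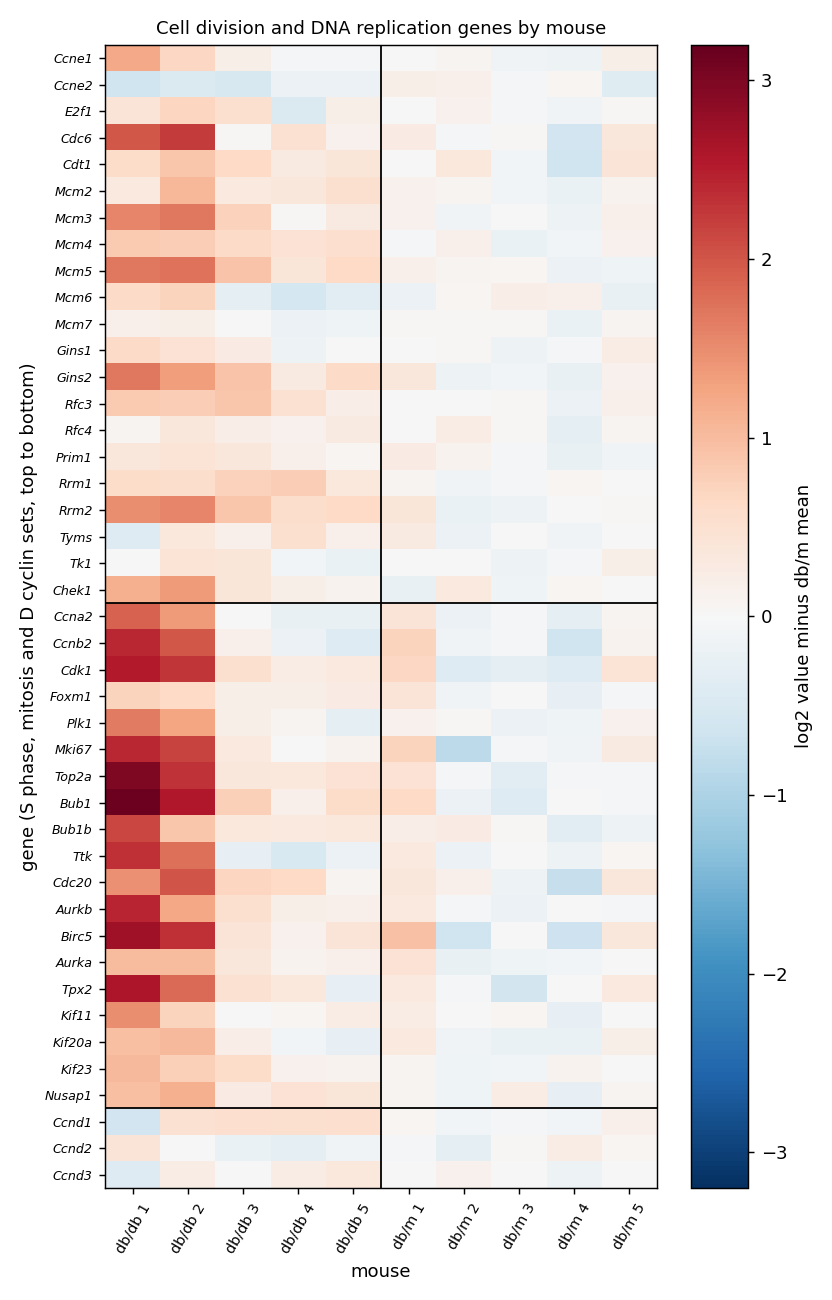
Heat map of the 43 genes (rows, grouped by role) in the 10 mice (columns, db/db left and db/m right), coloured by the log2 value minus the db/m mean of that gene. The mitosis rows are darkest in db/db 1 and db/db 2, and rows such as Mcm4, Rrm1 and Rrm2 are above the db/m mean in all 5 db/db mice.

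Per mouse, the median of the S phase genes relative to their db/m means was 0.61 in db/db 1 and 0.70 in db/db 2, and 0.39, 0.19 and 0.18 in db/db 3, 4 and 5, against -0.15 to 0.09 in the db/m mice. All 5 db/db mice thus lay above all 5 db/m mice on this median. The median of the mitosis genes was 2.13 in db/db 1 and 1.36 in db/db 2, and 0.34, 0.14 and 0.15 in db/db 3, 4 and 5, against -0.20 to 0.37 in the db/m mice. On the mitosis median db/db 3, 4 and 5 overlapped the db/m mice, of which db/m 1 was the highest. For 19 of 19 mitosis genes db/db 1 and db/db 2 were the 2 highest of the 10 arrays, and this held for 12 of 21 S phase genes and 7.72% of all genes. The genes and this split of the mice were chosen with earlier results of these data known. The counts therefore describe the pattern and do not test it. Among the db/db mice db/db 1 was the highest in 15 of the 19 mitosis genes, and db/db 2 was the highest in 13 of the 21 S phase genes.

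Origin licensing loads the MCM helicase onto DNA, and 2 of its 8 genes rose, against 2.96% of all genes. Mcm4, a helicase subunit gene, had values of 10.43, 10.39, 10.20, 10.07 and 10.14 in db/db 1 to 5, against 9.57, 9.77, 9.39, 9.52 and 9.74 in db/m 1 to 5. The groups did not overlap, and the spread within each was small beside the difference (log2 change 0.65 ± 0.10 SE, 1.57-fold, adjusted p = 0.00663). Mcm5, another subunit gene, had 8.11, 8.15, 7.32, 6.80 and 7.05 in db/db, against 6.58, 6.51, 6.48, 6.23 and 6.28 in db/m. It too was above all db/m mice in every db/db mouse, but its excess was largest in db/db 1 and 2 (change 1.07 ± 0.26, 2.10-fold, adjusted p = 0.0367). Without db/db 1 and 2 its change was 0.64 ± 0.13 (adjusted p = 0.0151).

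Mcm2 did not pass with all arrays (0.51 ± 0.15, adjusted p = 0.0717) and rose by 0.56 when db/db 1 was omitted (adjusted p = 0.0388) and by 0.39 when db/db 2 was omitted too (adjusted p = 0.0369). Its values were 9.25, 10, 9.26, 9.31 and 9.47 in db/db, against 9.08, 9.03, 8.85, 8.74 and 9.05 in db/m, so that the groups were apart and db/db 2 was the highest. Cdc6, which loads the helicase together with Cdt1, had 6.69 and 6.94 in db/db 1 and 2 and 4.75, 5.18 and 4.84 in db/db 3, 4 and 5, against 4.97, 4.67, 4.73, 4.09 and 5.06 in db/m. Only db/db 1, 2 and 4 lay above all db/m mice, and the change of 0.98 ± 0.45 did not pass (95% interval -0.02 to 1.97, adjusted p = 0.241). The helicase is a ring of subunits Mcm2 to Mcm7, and its genes did not move alike. Mcm3 was at 8.76 and 8.88 in db/db 1 and 2 and at 7.94, 7.22 and 7.48 in db/db 3, 4 and 5, against 7.02 to 7.35 in db/m (0.86 ± 0.31, adjusted p = 0.131). Mcm7 was at 9.44 to 9.83 in db/db and 9.43 to 9.72 in db/m (0.00 ± 0.10, 95% interval -0.21 to 0.22). Mcm6 was at 10.42 and 10.51 in db/db 1 and 2 but at 9.51, 9.24 and 9.47 in db/db 3, 4 and 5, against 9.56 to 10.03 in db/m. Db/db 3, 4 and 5 were thus below all db/m mice and db/db 1 and 2 above them, and the mean change was 0.02 ± 0.25. Cdt1 was at 9.69 to 10.30 in db/db and 8.77 to 9.81 in db/m (0.56 ± 0.20, adjusted p = 0.131).

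At the replication fork 2 of 5 genes rose, against 2.96% of all genes. Gins2, of the complex that activates the helicase, had 9.38, 9.03, 8.61, 7.97 and 8.31 in db/db, against 8.04, 7.52, 7.59, 7.45 and 7.83 in db/m. Only db/db 4 fell within the db/m range (change 0.97 ± 0.25, 1.96-fold, adjusted p = 0.0447). Gins2 did not pass without db/db 1 and 2 (0.61 ± 0.17, adjusted p = 0.0538). Rfc3, of the clamp loader, had 8.10, 8.03, 8.13, 7.74 and 7.46 in db/db, against 7.23, 7.27, 7.28, 7.07 and 7.41 in db/m. The groups were apart, by a narrow margin between db/db 5 and db/m 5 (0.64 ± 0.13, 1.56-fold, adjusted p = 0.0211). Gins1, Rfc4 and the primase gene Prim1 had changes of 0.23 ± 0.15, 0.21 ± 0.10 and 0.27 ± 0.11 and did not pass (adjusted p = 0.417, 0.261 and 0.189).

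In nucleotide supply 2 of 4 genes rose, against 2.96% of all genes. Both encode subunits of ribonucleotide reductase, the enzyme that makes DNA precursors. Rrm1 had 8.53, 8.50, 8.68, 8.73 and 8.26 in db/db, against 8.02, 7.81, 7.89, 7.99 and 7.95 in db/m. Every db/db mouse was above every db/m mouse, and db/db 1 and 2 were not the highest (0.61 ± 0.09, 1.53-fold, adjusted p = 0.00638). Its change was 0.62 ± 0.11 without db/db 1 and 2 (adjusted p = 0.0102). Rrm2 had 11.18, 11.27, 10.58, 10.26 and 10.33 in db/db, against 10.08, 9.48, 9.53, 9.69 and 9.73 in db/m. The groups were again apart, here with db/db 1 and 2 the highest (1.02 ± 0.22, 2.03-fold, adjusted p = 0.0226, and 0.69 ± 0.14 with adjusted p = 0.0166 without db/db 1 and 2). The thymidylate genes did not pass: Tyms, which makes thymidylate, was at 7.26 to 8.19 in db/db and 7.49 to 7.97 in db/m (0.15 ± 0.16), and Tk1, which salvages thymidine, was at 9.34 to 9.98 in db/db and 9.40 to 9.75 in db/m (0.11 ± 0.13).

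**Figure D2:**
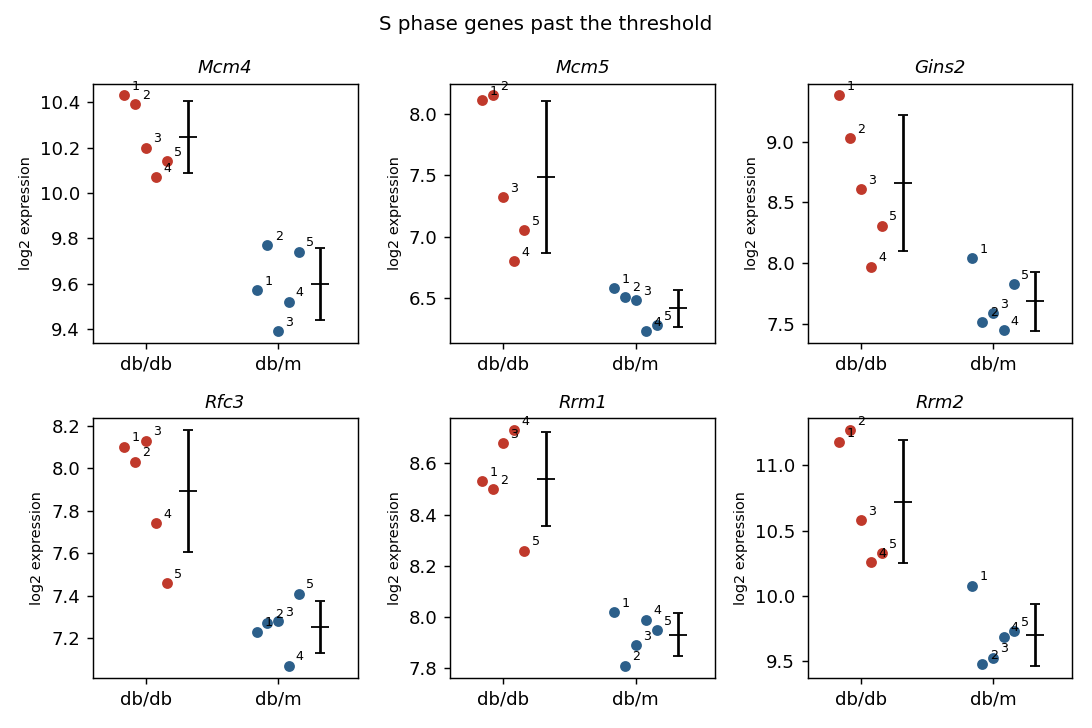
Log2 expression (vertical axes) of the 6 S phase genes past the threshold, 1 point per mouse with its number, db/db left and db/m right, and black bars for the mean and SD of each group (n = 5). All 5 db/db points lie above all db/m points except for Gins2, where db/db 4 lies within the db/m range.

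Genes of the G1/S switch and the replication checkpoint did not pass. Ccne1, an E cyclin gene, had 8.07 and 7.52 in db/db 1 and 2 and 7.05, 6.79 and 6.82 in db/db 3, 4 and 5, against 6.85, 6.95, 6.73, 6.70 and 7.03 in db/m (0.40 ± 0.23, adjusted p = 0.346). Ccne2, the other E cyclin gene, had 7.71, 7.90, 7.84, 8.16 and 8.17 in db/db, against 8.54, 8.52, 8.32, 8.43 and 7.98 in db/m (-0.40 ± 0.13, adjusted p = 0.102). The E cyclins thus differed in direction: Ccne1 was highest in db/db 1 and 2, and Ccne2 was below 4 of the 5 db/m mice in every db/db mouse. Ccne2 passed without db/m 5 (adjusted p = 0.0443). E2f1, the transcription factor gene of the switch, was at 5.75 to 6.89 in db/db and 6.09 to 6.35 in db/m (0.26 ± 0.19, adjusted p = 0.464), and it passed in 1 of the 10 fits that left out 1 array. Chek1, a kinase gene that holds the cycle when forks stall, had 5.41 and 5.63 in db/db 1 and 2 and 4.67, 4.47 and 4.38 in db/db 3, 4 and 5, against 4.04 to 4.59 in db/m (0.63 ± 0.25, adjusted p = 0.168).

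Of the 6 S phase genes that rose, Mcm4 and Rrm1 kept the call in all 10 fits that each left out 1 array. Rfc3 kept it in 7 and lost it without db/db 2 (adjusted p = 0.0549), db/m 3 (0.0557) and db/m 4 (0.0563). Rrm2 kept it in 6 and lost it without db/m 2, 3, 4 or 5 (0.054, 0.0673, 0.0563 and 0.0504). Mcm5 kept it in 3, without db/db 1, 4 or 5, with adjusted p = 0.0633 to 0.088 in the other 7 fits. Gins2 kept it in 2, without db/db 1 or 4, and leaving out db/m 3 gave 0.11. The number of S phase genes called was 3 without db/db 2 or db/m 2, and 2 without db/m 3 or db/m 4. Without db/db 1 it was 7, Mcm2 being added, against 6.84% of all genes higher in that fit. Without db/db 1 and 2 it was 6, with Mcm2 called and Gins2 not, against 6.0%.

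The mitosis genes were highest in db/db 1 and 2 and lower in db/db 3, 4 and 5. For 7 of the 19 genes db/db 3, 4 and 5 all lay inside the db/m range, against 25.2% of all genes. For 3 of the 19 they all lay above it, against 10% of all genes. Cdk1, the kinase gene that starts mitosis, had 10.24 and 10.01 in db/db 1 and 2 and 8.22, 7.95 and 8.02 in db/db 3, 4 and 5, against 8.38, 7.29, 7.43, 7.31 and 8.15 in db/m. Db/db 3, 4 and 5 lay inside the db/m range, and the change of 1.18 ± 0.50 did not pass (2.26-fold, 95% interval 0.07 to 2.29, adjusted p = 0.206). Ccnb2, a B cyclin gene and a partner of Cdk1, had 9.12 and 8.69 in db/db 1 and 2 and 6.87, 6.51 and 6.30 in db/db 3, 4 and 5, against 7.40, 6.58, 6.63, 6.07 and 6.82 in db/m. Its change was 0.80 ± 0.55 with all arrays (adjusted p = 0.45) and turned to -0.14 without db/db 1 and 2 (adjusted p = 0.81). Among the other genes of mitotic entry, Ccna2 (the A cyclin of S phase and G2), Plk1 (a mitotic kinase) and Foxm1 (a transcription factor) had changes of 0.56 ± 0.42, 0.58 ± 0.34 and 0.39 ± 0.15.

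The genes of chromosome structure had the same shape. Top2a, whose enzyme untangles DNA, had 8.75 and 8.08 in db/db 1 and 2 and 6.12, 6.11 and 6.24 in db/db 3, 4 and 5, against 6.23, 5.71, 5.44, 5.73 and 5.72 in db/m (1.30 ± 0.52, 2.46-fold, adjusted p = 0.176). Db/db 3, 4 and 5 were above 4 of the 5 db/m mice, and only db/db 5 exceeded db/m 1. Mki67, the proliferation marker Ki-67, had 9.64 and 9.38 in db/db 1 and 2 and 7.54, 7.23 and 7.32 in db/db 3, 4 and 5, against 7.93, 6.38, 7.17, 7.11 and 7.51 in db/m (1.00 ± 0.52, adjusted p = 0.305). Without db/db 1 and 2 the change of Mki67 was 0.14 ± 0.29.

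**Figure D3:**
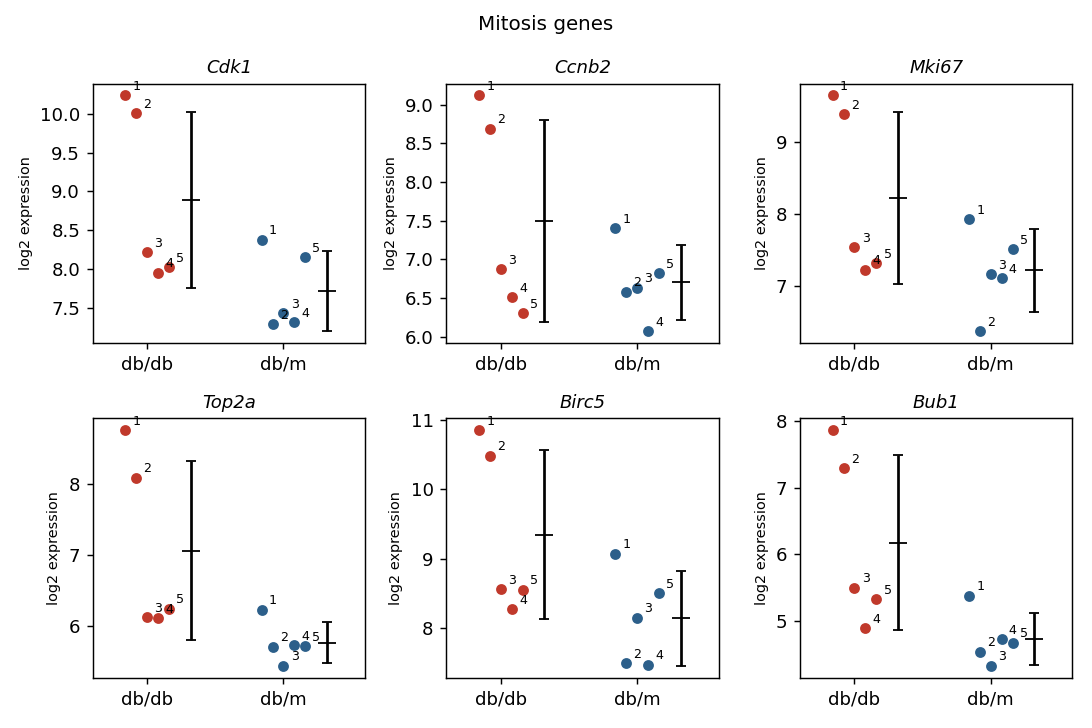
Log2 expression (vertical axes) of 6 mitosis genes, 1 point per mouse with its number, db/db left and db/m right, and black bars for the mean and SD of each group (n = 5). Db/db 1 and db/db 2 lie above the other 8 mice in every panel, and db/db 3, 4 and 5 lie at or near the db/m points.

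Of the spindle checkpoint and mitotic exit, Bub1, a checkpoint kinase gene, showed the largest change of all 43 genes. It had 7.86 and 7.29 in db/db 1 and 2 and 5.50, 4.89 and 5.33 in db/db 3, 4 and 5, against 5.38, 4.54, 4.33, 4.73 and 4.68 in db/m (1.44 ± 0.55, 2.72-fold, 95% interval 0.23 to 2.66, adjusted p = 0.157). Birc5, encoding survivin of the chromosomal passenger complex, had 10.85 and 10.48 in db/db 1 and 2 and 8.56, 8.27 and 8.55 in db/db 3, 4 and 5, against 9.07, 7.49, 8.15, 7.47 and 8.50 in db/m (1.2 ± 0.56, adjusted p = 0.246). In both genes db/m 1 was the highest db/m mouse. The other 4 genes of this role, Bub1b, Ttk, Cdc20 and Aurkb, had changes from 0.63 to 0.98 and adjusted p from 0.143 to 0.538. Bub1b, a checkpoint gene, was apart between the groups, at 6.65 to 8.48 in db/db and 5.99 to 6.6 in db/m. Ttk, another checkpoint kinase gene, had 7.27 and 6.68 in db/db 1 and 2 and 4.66, 4.45 and 4.74 in db/db 3, 4 and 5, against 4.73 to 5.23 in db/m. Db/db 3 and 4 were thus below all db/m mice, and db/db 5 was above db/m 2 only.

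Among spindle and cytokinesis genes, Nusap1, which binds spindle microtubules, came nearest to the threshold. It had 9.67, 9.84, 8.98, 9.17 and 9.11 in db/db, against 8.80, 8.58, 8.95, 8.45 and 8.79 in db/m, and the groups were apart (0.64 ± 0.18, 1.56-fold, adjusted p = 0.0612). It was the 1 mitosis gene called when the lowest 25% of genes by mean were left out (adjusted p = 0.0494). Tpx2, which activates the Aurora A kinase on the spindle, had 8.37 and 7.58 in db/db 1 and 2 and 6.26, 6.11 and 5.52 in db/db 3, 4 and 5, against 6.08, 5.74, 5.20, 5.78 and 6.08 in db/m (0.99 ± 0.49, adjusted p = 0.274). Kif23, a dim kinesin gene of cytokinesis, was apart by a narrow margin, at 5.49 to 6.41 in db/db and 5.24 to 5.47 in db/m (0.54 ± 0.17, adjusted p = 0.0988). Aurka, Kif11 and Kif20a, of the spindle poles and motors, had changes of 0.53 ± 0.21, 0.50 ± 0.26 and 0.37 ± 0.26. In all, 9 of the 43 genes had the db/db mice above every db/m mouse, against 4.35% of all genes: 6 S phase genes (Mcm2, Mcm4, Mcm5, Rfc3, Rrm1 and Rrm2) and 3 mitosis genes (Bub1b, Kif23 and Nusap1). With db/db 3, 4 and 5 alone set against the db/m mice, these 9 are apart by necessity. Only Ccnd1 was added to them, and 10% of all genes were above every db/m mouse in this comparison.

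**Figure D4:**
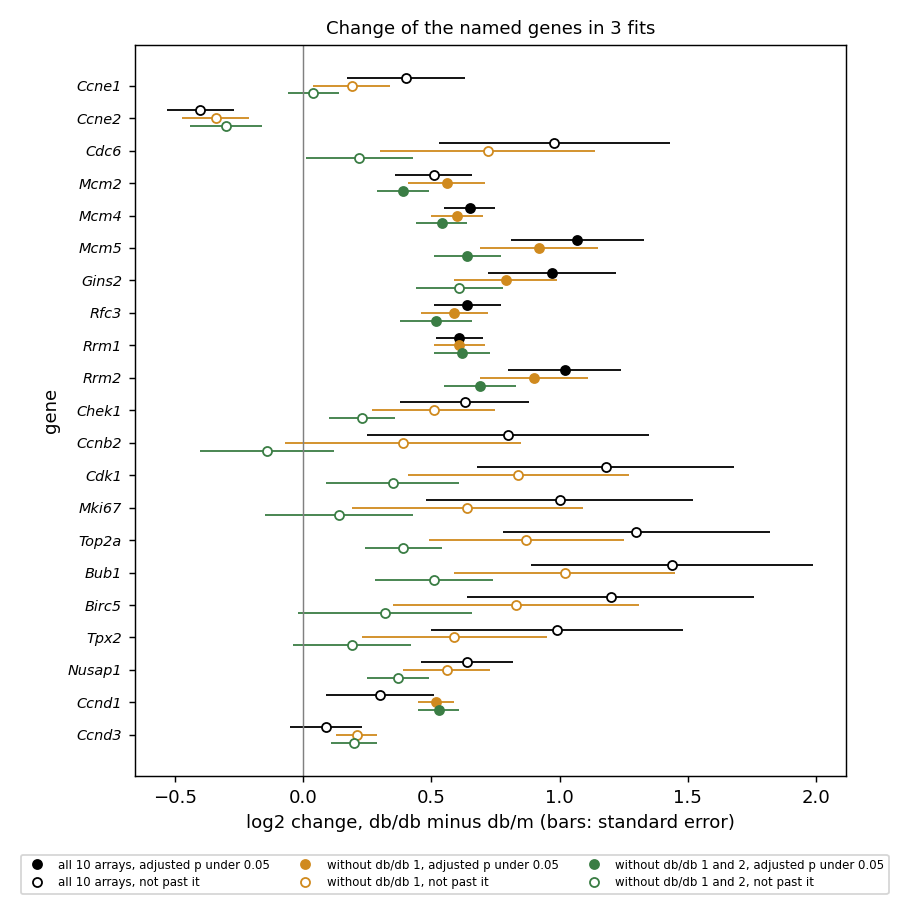
Log2 change, db/db minus db/m (horizontal axis, bars are standard errors), of the 21 named genes (rows) in fits with all 10 arrays (black), without db/db 1 (orange) and without db/db 1 and 2 (green), filled where the adjusted p was under 0.05. The change of Rrm1 is 0.61 to 0.62 in these fits, while mitosis genes such as Ccnb2 and Mki67 move towards 0 without db/db 1 and 2.

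Without db/db 1 and 2 the median change was 0.23 over the S phase genes and 0.21 over the mitosis genes, against 0.00 over all genes. In that fit 14 of the 19 mitosis genes had a change above 0, against 49.4% of all genes. None of the 19 passed by limma, and 5 had an unadjusted p under 0.05, against 25.4% of all genes, which is about the same share. For 7 mitosis genes (Ccna2, Ccnb2, Cdk1, Foxm1, Mki67, Aurka and Birc5) db/db 3, 4 and 5 all lay inside the db/m range, against 25.2% of all genes. For Top2a the change in that fit was 0.39 ± 0.15 (adjusted p = 0.145).

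The D cyclins, which carry growth signals into the cycle, followed another order. Ccnd1 had 11.26, 12.36, 12.42, 12.38 and 12.42 in db/db, against 11.94, 11.78, 11.81, 11.78 and 12.04 in db/m. Db/db 1 was the lowest of all 10 mice and db/db 2 to 5 were above all db/m mice. With all arrays the change was 0.30 ± 0.21 (adjusted p = 0.469), and without db/db 1 Ccnd1 rose by 0.52 ± 0.07 (adjusted p = 0.00167). Ccnd3 had 10.67, 11.33, 11.11, 11.34 and 11.42 in db/db, against 11.10, 11.22, 11.11, 10.94 and 11.09 in db/m (0.09 ± 0.14, adjusted p = 0.766), again with db/db 1 the lowest. Ccnd2 was at 7.48 to 8.17 in db/db, highest in db/db 1, and at 7.46 to 8.0 in db/m (-0.04 ± 0.14, adjusted p = 0.901).

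Further genes of the same pathways were counted in the same way. Of 47 further S phase genes 3 rose and 1 fell by limma, where 2.96% of all genes rose and 3.54% fell. Chaf1b, of the chromatin assembly factor, rose by 1.09 ± 0.21 (adjusted p = 0.0153), Rpa2, of the single-strand binding protein, by 0.61 ± 0.10 (adjusted p = 0.00808), and Pold2, a polymerase delta subunit, by 0.37 ± 0.08 (adjusted p = 0.0217). Orc3, of the origin recognition complex, fell by 0.63 ± 0.11 (log2 change -0.63, adjusted p = 0.00948). Chaf1b had 8.10, 8.17, 7.78, 7.42 and 7.25 in db/db, against 6.53, 6.58, 6.59, 6.35 and 7.20 in db/m, and the groups were apart by a narrow margin. Pold2 lost the call with each array centred on its median (adjusted p = 0.0598) and in 5 of the fits that left out 1 array, the weakest value being 0.0683 when db/m 3 was omitted. Over these 47 genes 7 rose and 2 fell when db/db 1 was omitted, where 6.84% of all genes rose and 5.93% fell.

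Of 53 further mitosis genes 3 rose and 0 fell, where 2.96% of all genes rose and 3.54% fell. Spc24, of the kinetochore, had 9.07, 9.44, 8.88, 8.92 and 9.06 in db/db, against 8.27, 7.99, 7.73, 7.49 and 8.18 in db/m (1.14 ± 0.16, 2.21-fold, adjusted p = 0.00409). It was apart in every mouse with db/db 1 and 2 close to the others, unlike Cdk1 or Top2a. Mad2l1, a spindle checkpoint gene, rose by 0.72 ± 0.16 (adjusted p = 0.0254) and Cdc25b, a phosphatase gene of mitotic entry, by 0.65 ± 0.16 (adjusted p = 0.0385). Mad2l1 kept its call in 7 and Cdc25b in 2 of the 10 fits that left out 1 array, their weakest values being 0.071 when db/m 3 was omitted and 0.0875 when db/db 2 was omitted. Only 1 of the 53 genes was called without db/db 2, db/m 3 or db/m 4. For 43 of the 53 genes db/db 1 and 2 were the 2 highest of the 10 arrays, against 7.72% of all genes. This too describes the chosen split and does not test it. Without db/db 1 and 2 3 of the 53 rose and 2 fell, where 6.0% of all genes rose and 5.13% fell. Neither the rises nor the falls were thus above the general share. The falls were Nek2 and Ect2, both named after their values were seen.

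Of 9 inhibitors of the cycle 3 rose, where 2.96% of all genes rose and 3.54% fell. Cdkn1a, encoding the p21 inhibitor, had 11.13, 9.86, 9.40, 9.21 and 9.18 in db/db, against 8.0, 7.66, 8.10, 8.34 and 7.83 in db/m. It was above all db/m mice in every db/db mouse and highest in db/db 1 (1.77 ± 0.34, 3.41-fold, adjusted p = 0.0154, and 1.28 with adjusted p = 0.00151 without db/db 1 and 2). Rb1, the retinoblastoma gene that restrains E2F, rose by 0.34 ± 0.06 (adjusted p = 0.0131, but 0.0771 with each array centred on its median), and Cdkn1c, an inhibitor gene that podocytes express, by 0.80 ± 0.19 (adjusted p = 0.0357, but 0.0525 with that centring), though Cdkn1c kept the call in only 2 of the 10 fits that left out 1 array, and had 0.0861 when db/m 4 was omitted. Of 8 genes of G1 kinases, Myc and other E2F factors, E2f6, a repressor E2F, fell by 0.30 ± 0.07 (log2 change -0.30, adjusted p = 0.0422) and lost the call in 8 such fits, the weakest value being 0.108 when db/m 3 was omitted.

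Markers of other cells differed widely among the db/db mice and were highest in db/db 1 for leukocytes, injured tubules and fibroblasts. Over 19 leukocyte markers the mean level was 11.03, 8.69, 7.86, 7.19 and 6.95 in db/db 1 to 5, against 7.64 to 7.89 in db/m. By limma 0 of the 19 were called, where 2.96% of all genes rose and 3.54% fell. In db/db 1 and 2 19 and 14 of them were above all db/m mice, while in db/db 3, 4 and 5 5, 0 and 0 were above and 13, 14 and 14 were below. Of all genes 22.2% to 25.6% were above all db/m mice in each db/db mouse, so that the 5 in db/db 3 are about the general share, and 21.9% to 49.4% were below. The kinds of leukocyte differed. The 4 neutrophil markers averaged 11.93, 8.84, 9.0, 6.53 and 6.36 in db/db, against 6.22 to 7.20 in db/m, so that db/db 3 was as high as db/db 2. The 5 lymphocyte markers averaged 8.27, 6.51, 5.83, 5.73 and 5.67 in db/db, against 6.28 to 6.75 in db/m, and db/db 2 lay inside the db/m range. Of the 19 leukocyte markers 12 fell without db/db 1 and 2, where 5.13% of all genes fell. Ptprc, the CD45 gene of all leukocytes, stood at 11.43 and 9.35 in db/db 1 and 2 and at 8.30, 7.92 and 7.39 in db/db 3, 4 and 5, against 8.44 to 8.85 in db/m. Db/db 1 and 2 were above all db/m mice in Ptprc and db/db 3, 4 and 5 below them. Over 6 markers of injured tubules, such as Havcr1 and Sox9, the mean level was 12.59, 9.13, 8.10, 7.66 and 7.61 in db/db, against 7.0 to 8.20 in db/m. Of these 6 markers 1 rose (Krt18), against 2.96% of all genes. Over 5 fibroblast and pericyte markers it was 10.88, 9.33, 8.18, 8.55 and 8.63 in db/db, against 8.90 to 9.03 in db/m. The log2 scale has no 0, and the lowest leukocyte marker value was 3.90. The part of these cells in the S phase and mitosis values was not tested.

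**Figure D5:**
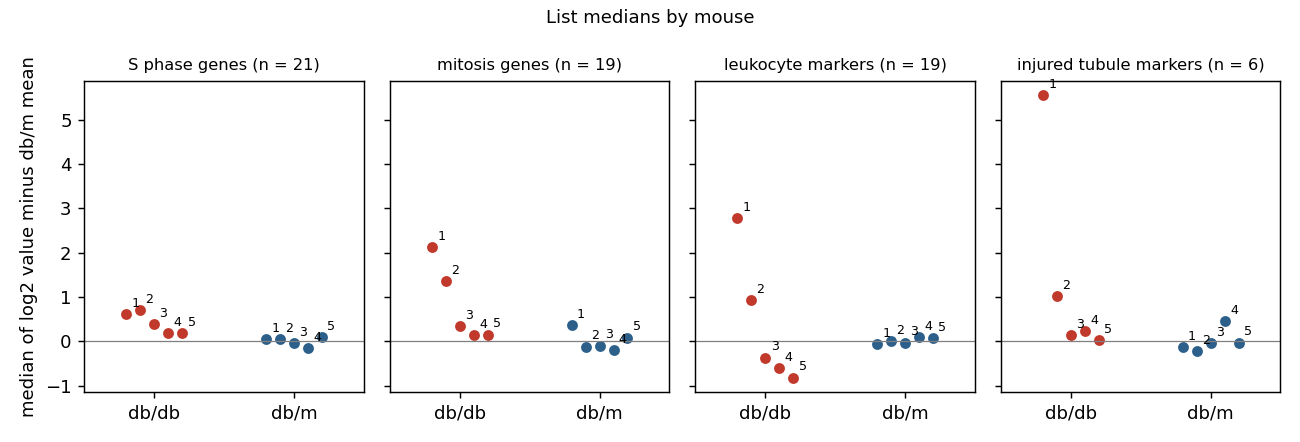
Median over each list of the log2 value minus the db/m mean (vertical axis), 1 point per mouse with its number, db/db left and db/m right, for S phase genes, mitosis genes, leukocyte markers and injured tubule markers. Db/db 3, 4 and 5 lie below the db/m mice for leukocyte markers and above them for S phase genes.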

How the data were processed

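Expression was measured on Affymetrix Mouse Genome 430 2.0 arrays, 1 per mouse. The deposited values are log2 expression levels from RMA, per the submitters' processing notes, with 1 row per Entrez Gene ID. The RMA version and the tool that regrouped probes are not given in the sources used here, per the labels. The method equalises arrays, and levels were compared between genes only to call genes bright or dim. The 64 control rows were left out. Of 16475 gene rows 15780 had 1 symbol in the probe table, 0 had several and 695 were not listed and stayed unnamed, and 15752 matched RefSeq.

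Differences, db/db minus db/m, were tested on the deposited values with limma 3.58.1 in R 4.3.3 (lmFit and eBayes, 2-sided, Benjamini-Hochberg adjustment over all 16475 genes, threshold 0.05), and tables and motif searches were made in Python 3.11.15. Standard errors are limma's. The fitting code was tested on simulated data. Alternatives were other scalings, array weights, a filter on dim genes, stricter thresholds, mouse number as a block and leaving out arrays. The members and lists were chosen with earlier results of these data known. Given mouse by mouse were members past the threshold with all arrays, without db/db 1 or without db/db 1 and 2, and the 2 members of each role with the largest change. Further pathway genes were named where they passed, at most 3 per direction and list, and Cdkn1a in any case. The number of arrays limits precision.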

Additional observations from a re-analysis of the deposited data

Results flagged for a closer look

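In 4 of 68 groups of 5 mice examined, the highest or lowest mouse lay farther from the others than Dixon's critical value of 0.71 of the range allows, and chance alone flags about 1 in 20 groups. Mcm2 in db/db 2 was at 10, above the other db/db mice at 9.25 to 9.47. Ccnd1 in db/db 1 was at 11.26, below the other db/db mice at 12.36 to 12.42. Orc3 in db/db 1 was at 9.58, below the other db/db mice at 9.99 to 10.14. Chaf1b in db/m 5 was at 7.20, above the other db/m mice at 6.35 to 6.59.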

How the results depend on the processing

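The causes of the shifts below were not tested. Over all genes 1072 were called, and 2641 with array weights, 1834 without db/db 1 and 2, 575 with a 1.5-fold minimum, 279 at an adjusted p under 0.01 and 490 to 2104 when 1 array was left out. The 6 calls among S phase genes became 2 at an adjusted p under 0.01 and 2 to 7 when 1 array was left out, and the median change over the 21 S phase genes was 0.23 without db/db 1 and 2 and 0.37 to 0.54 when 1 array was left out. The 0 calls among mitosis genes became 1 with the lowest 25% of genes left out and stayed at 0 when any 1 array was left out, with a median change of 0.47 to 0.93, and the change of Ccnb2 turned to -0.14 without db/db 1 and 2. The 0 calls among D cyclins became 1 with array weights and 1 without db/db 1 and 2, and were 0 to 1 when 1 array was left out. The 4 calls among further S phase genes became 7 with the dim genes left out, 10 with array weights, 7 without db/db 1 and 2, 2 at an adjusted p under 0.01 and 3 to 9 when 1 array was left out. The 3 calls among further mitosis genes became 5 with array weights, 5 without db/db 1 and 2, 1 at an adjusted p under 0.01 and 1 to 4 when 1 array was left out. Same-numbered mice did not deviate together over all genes (correlations -0.095 to 0.006), but such correlations cannot settle whether the numbers pair the mice. With mouse number as a replicate block in limma 393 genes were called, with 3 among S phase genes and 1 among further S phase genes. That 1 gene was Orc3, which fell. Chaf1b, Rpa2 and Pold2 lost the call in this fit (adjusted p = 0.074, 0.0643 and 0.0934), as did Cdkn1a (adjusted p = 0.0569). Centring each array on its median shifted the median of all genes to -0.10 and left the calls at 6 S phase and 0 mitosis genes. Of the genes studied, 2 S phase genes (Cdc6 and Chek1) and 5 mitosis genes (Aurkb, Bub1, Ttk, Kif11 and Kif23) lay in the dimmest 25%, where signal is closest to background.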
